A study of Mus musculus with 21 samples.

Results

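The genes described here are 40 genes of the vessel lining and of the endocardium, the inner lining of the heart, taken by symbol from the 24509 genes of the expression tables of 2 stages of mouse heart development. All 40 symbols were found and all 40 passed the filter on low values at both stages. The study sequenced polyadenylated RNA of embryonic hearts with and without CHD4, the ATPase by which the NuRD complex moves nucleosomes. It also mapped CHD4 on DNA by chromatin immunoprecipitation (ChIP). All embryos were of the CD1 strain. Control hearts were Chd4(flox/flox), with unrecombined floxed alleles (flox). Depleted hearts carried the recombined Chd4 alleles written Δflox/Δflox (null). The recombinase and the cells it acts in are not named in the labels, so it is not known from them whether the lining cells themselves lost CHD4. There were 5 flox and 5 null libraries at embryonic day (E) 9.5, made from 200 ng of RNA each, and 3 and 3 at E10.5, made from 300 ng. The ChIP libraries were 3, from wild-type hearts at E10.0, and the series text counts 2 biological samples behind them. The series text calls the RNA libraries biological replicates and does not say whether hearts were pooled.

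Endothelial cells line every blood vessel, and the endocardium is a specialised endothelium that faces the blood inside the heart and instructs the muscle beneath it. Growth factors of the VEGF, angiopoietin, apelin and BMP families act on these cells through surface receptors, and ETS, SOX and KLF transcription factors hold their identity and their response to flow. Endocardial cells also give rise to the cushion mesenchyme from which the valves form, and they carry Nfatc1 and Npr3 on top of the markers they share with other endothelium.

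Values are RPKM, reads per kilobase of gene and per 1000000 reads of the library. Each library of E9.5 held 14.6 to 19.96 M reads within genes, and each of E10.5 held 15.0 to 16.1 M. The lowest member in any library still held 38 reads. Chd4 itself lay between 91.2 and 94.6 RPKM in the 5 flox libraries and between 40.7 and 48.8 RPKM in the 5 null libraries at E9.5, and it fell by 1.01 on the log2 scale (SE 0.0524, limma adjusted p = 1.69e-06). At E10.5 it was 67.2, 74.6 and 91.1 RPKM in flox and 48.2, 57.4 and 52.5 RPKM in null. These groups did not overlap, but the log2 difference of -0.55 (SE 0.161) did not pass the test (limma adjusted p = 0.116). The authors' deposited table of E10.5 lists Chd4 with a log2 of -0.50, null over control, at an adjusted p of 0.0220. All other differences below are on log2(RPKM + 0.5), null minus flox, and a gene is said to have risen or fallen only at a limma adjusted p under 0.05 over all genes tested.

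The set was present in all 16 RNA libraries at similar strength. Summed over the 40 genes, flox hearts held 913 to 1089 RPKM and null hearts 950 to 983 RPKM at E9.5. At E10.5 the sums were 839 to 954 RPKM in flox and 797 to 958 RPKM in null, so the groups overlapped at both stages. Per length, the highest members were Plvap, a protein of endothelial windows and caveolae, with a mean of 77.4 RPKM at E9.5, and Ramp2, a partner of the adrenomedullin receptor, with 74.5 RPKM at E10.5. The lowest was Robo4, an endothelial guidance receptor, with 0.948 RPKM and 1.47 RPKM. In whole-heart RNA, fewer cells of a type and less RNA per cell cannot be told apart.

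Only 3 of the 40 genes passed the test at a stage. At E9.5 Sox18 and Klf2 fell, 2 of 40 genes or 5.0%, where 17.2% of all 13643 genes tested were called and 10.3% fell. No member rose, where 6.87% of all genes did. Rises were 40.01% of all calls of E9.5, and 52.5% with libraries scaled to a common median. At E10.5 Egfl7 rose, 1 of 40 or 2.5%, where 2.07% of 14100 genes were called (1.77% rose and 0.305% fell). Egfl7 was also the 1 member whose difference changed between the stages, where 4.04% of 13418 genes did. Over the set the median log2 difference was -0.04 at E9.5 and -0.08 at E10.5, against -0.04 and -0.03 over all genes tested. By sign alone 22 of 40 (55.0%) were lower in null at E9.5, where 57.9% of all genes were, and 25 of 40 (62.5%) at E10.5, where 53.7% were. With 1 library left out the median ran from -0.09 (without flox replicate 3) to 0.01 (without flox replicate 4) at E9.5. At E10.5 it was -0.19 without null replicate 1, -0.14 without flox replicate 2, -0.03 without flox replicate 3 and -0.01 without null replicate 3. Without null replicate 3, 21 of 40 members were lower, where 53.4% of all genes were. The middle of the absolute differences was 0.15 at E9.5 for the members and for all genes alike, and 0.23 against 0.27 at E10.5.

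**Figure D1:**
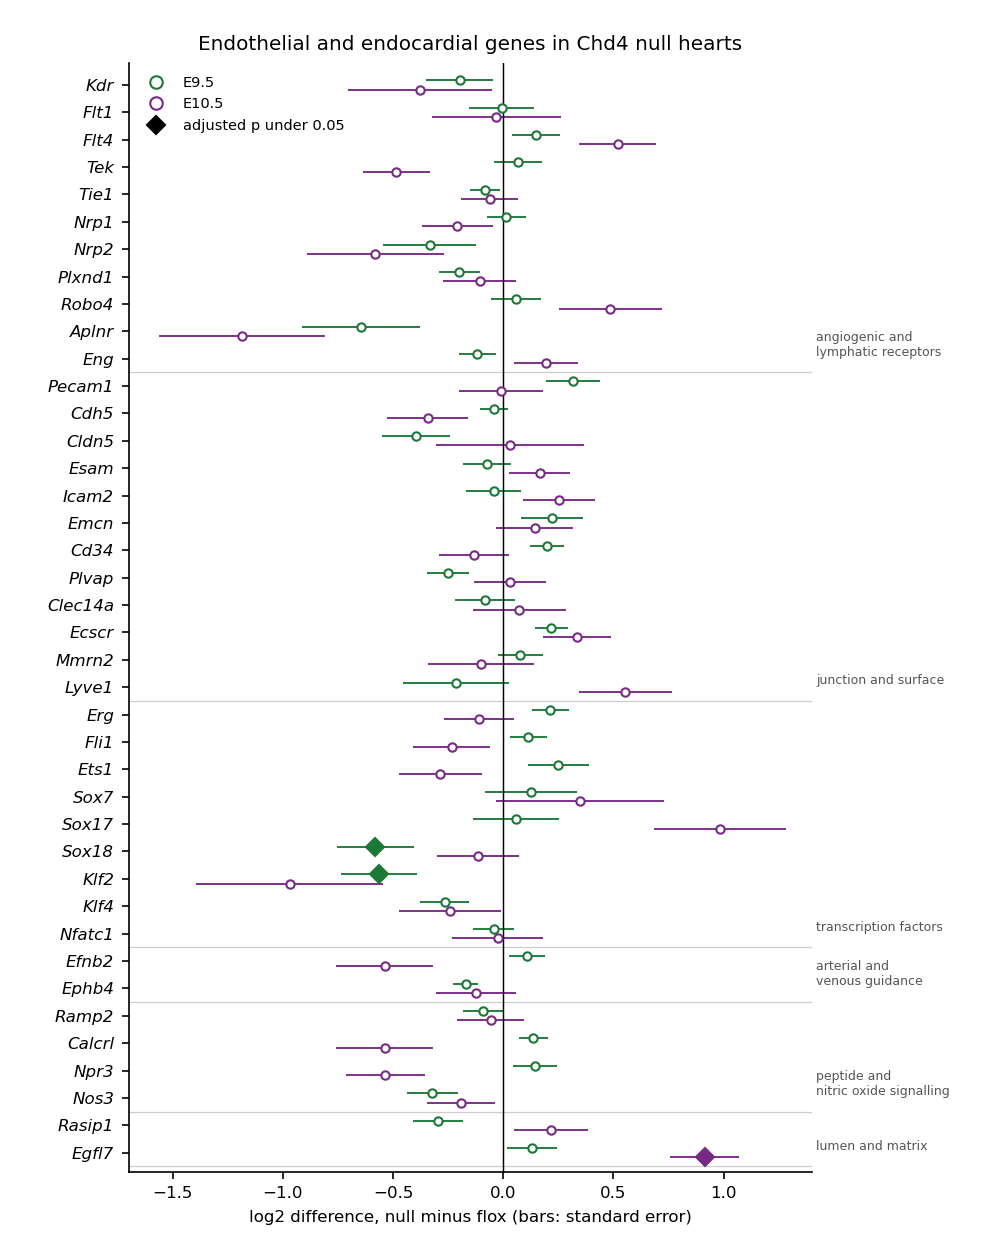
Log2 difference (null minus flox) of each of the 40 genes, by role, at E9.5 (green) and E10.5 (purple), with the standard error as bars. Filled diamonds are the genes past an adjusted p of 0.05, which are Sox18 and Klf2 at E9.5 and Egfl7 at E10.5, and most other points lie within 0.5 of 0.

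Sequences are shown for the genes these results turn on, because CHD4 peaks lie at some of their starts. The lines for Klf2, Egfl7 and Efnb2 each hold, 5′ to 3′, the 250 bases before an annotated start in RefSeq (GRCm38.p6, the assembly of mm10), and capitals mark bases inside a CHD4 peak found in all 3 ChIP libraries. RefSeq promoters were matched for 23 of the 40 genes, and Sox18 was not among them. The Klf2 stretch (chr8:72318812-72319061, plus strand) lies inside a peak over its whole length. The first annotated Egfl7 start (chr2:26580833-26581082, plus strand) holds no base in a peak, while the most downstream one (chr2:26586386-26586635, plus strand) holds 204 of 250. A further Egfl7 start between them (chr2:26583615-26583864, plus strand) has no base in a peak and is not printed. Efnb2 (chr8:8661243-8661492, minus strand) again lies wholly inside a peak. The line for miR-126a-3p, whose gene lies within Egfl7, gives the mature RNA with its seed in capitals.
Klf2 start: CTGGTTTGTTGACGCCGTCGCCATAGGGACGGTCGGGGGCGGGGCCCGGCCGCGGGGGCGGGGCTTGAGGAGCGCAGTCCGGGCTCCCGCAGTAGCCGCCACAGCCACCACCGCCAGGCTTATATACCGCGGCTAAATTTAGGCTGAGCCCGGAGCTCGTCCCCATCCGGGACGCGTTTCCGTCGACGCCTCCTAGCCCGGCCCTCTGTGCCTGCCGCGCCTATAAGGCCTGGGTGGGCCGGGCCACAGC
Egfl7 first start: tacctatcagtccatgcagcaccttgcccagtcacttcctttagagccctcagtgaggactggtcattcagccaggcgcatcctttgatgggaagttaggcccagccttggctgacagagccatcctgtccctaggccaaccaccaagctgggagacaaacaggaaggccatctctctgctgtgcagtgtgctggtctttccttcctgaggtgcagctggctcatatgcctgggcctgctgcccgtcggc
Egfl7 downstream start: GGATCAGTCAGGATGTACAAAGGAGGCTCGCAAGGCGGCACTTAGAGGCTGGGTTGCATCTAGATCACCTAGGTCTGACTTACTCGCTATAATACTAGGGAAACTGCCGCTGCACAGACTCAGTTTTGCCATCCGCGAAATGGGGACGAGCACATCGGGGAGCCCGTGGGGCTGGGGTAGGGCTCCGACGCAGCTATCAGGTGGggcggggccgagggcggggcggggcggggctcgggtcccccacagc
Efnb2 start: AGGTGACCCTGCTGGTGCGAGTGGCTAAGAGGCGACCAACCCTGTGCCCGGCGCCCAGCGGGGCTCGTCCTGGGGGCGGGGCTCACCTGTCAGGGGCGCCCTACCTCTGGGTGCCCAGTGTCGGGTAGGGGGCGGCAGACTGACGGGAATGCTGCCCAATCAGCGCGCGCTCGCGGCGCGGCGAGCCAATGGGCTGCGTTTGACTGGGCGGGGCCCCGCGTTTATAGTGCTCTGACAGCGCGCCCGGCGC
miR-126a-3p: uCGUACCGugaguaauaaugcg

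Short motifs were searched in these stretches on both strands, and a match to TATAA can overlap its own reverse or that of GATAA. A match is a string of letters and not a shown binding site. The ETS core GGAA was found 1 time before Klf2, 5 times before the first Egfl7 start and 1 time before the downstream one, and 93.4% of 32851 RefSeq promoters of this length hold it. The KLF core CACCC occurred 1 time before Klf2 and not before those Egfl7 starts (52.0% of all promoters). TATAA occurred 2 times before Klf2 and 1 time before the downstream Egfl7 start (22.8%). TGTTT, the forkhead core, occurred 1 time before the first Egfl7 start (46.4%), while ACAAT (27.7%) and GATAA (22.6%) occurred in none of these 3 stretches. Guanine and cytosine made up 71.2% of the Klf2 stretch, 58.0% of that before the first Egfl7 start and 63.2% of that before the downstream one. The stretch before the Egfl7 start that is not printed held GGAA 3 times, CACCC 2 times, and TGTTT and GATAA 1 time each.

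None of the 11 angiogenic and lymphatic receptors passed the test at either stage, where 17.2% of all genes tested did at E9.5 and 2.07% at E10.5. Kdr, the main VEGF receptor of blood endothelium, was at 34.4, 28.1, 27.7, 36.2 and 32.3 RPKM in flox and at 32.2, 21.5, 25.1, 38.8 and 23.3 RPKM in null at E9.5. The groups overlapped throughout (log2 -0.20, 95% interval -0.53 to 0.14). At E10.5 Kdr was 26.5, 22.0 and 22.9 RPKM in flox and 28.1, 21.0 and 10.0 RPKM in null, where null replicate 3 was far below the rest. Its log2 difference there was -0.38, and 0.03 without that library. Flt1, a VEGF receptor that also acts as a decoy, averaged 8.90 ± 1.38 RPKM in flox and 8.95 ± 2.22 in null at E9.5 (SD, n = 5 each), a log2 difference of -0.01.

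Flt4, the VEGF-C receptor of lymphatic and endocardial cells, overlapped at E9.5 (log2 0.15, limma adjusted p = 0.370). By E10.5 it was 3.88, 4.04 and 4.25 RPKM in flox and 6.08, 7.14 and 5.01 RPKM in null. Every null library stood above every flox library there, yet the difference of 0.52 (SE 0.174) did not pass (limma adjusted p = 0.145). The authors' deposited table of E10.5 lists Flt4 with a log2 of 0.57, null over control, at an adjusted p of 0.0290.

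Tek, the angiopoietin receptor, went the other way by its values. It was 31.5, 34.1, 26.8, 27.8 and 31.8 RPKM in flox and 30.2, 32.9, 37.6, 24.6 and 35.2 RPKM in null at E9.5, with overlapping groups (log2 0.07). At E10.5 flox hearts held 46.8, 36.0 and 41.0 RPKM and null hearts 29.3, 32.2 and 26.4 RPKM. The groups no longer overlapped, and the difference of -0.49 (SE 0.154) had a limma adjusted p of 0.134. Tie1, its partner receptor, averaged 24.2 ± 1.04 RPKM in flox and 23.1 ± 1.37 in null at E10.5 (SD, n = 3 each).

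Aplnr, the receptor of apelin, showed the widest negative difference of the 40 genes at both stages without passing the test at either. At E9.5 it was 4.50, 5.51, 5.50, 7.69 and 5.97 RPKM in flox and 6.77, 1.88, 2.39, 3.60 and 4.46 RPKM in null, so 1 null library lay among the flox values. At the later stage it was 6.91, 11.3 and 8.92 RPKM in flox against 1.81, 6.57 and 3.79 RPKM in null, without overlap. Its log2 difference was -0.65 (SE 0.266, limma adjusted p = 0.120) at E9.5 and -1.19 (SE 0.377, limma adjusted p = 0.135) at E10.5. The authors' deposited table of E10.5 lists it with a log2 of -0.90, null over control, at an adjusted p of 0.0296.

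Among the other receptors, Robo4 and Eng were without overlap and higher in null at E10.5. Robo4 averaged 1.15 ± 0.355 RPKM in flox and 1.79 ± 0.313 in null (SD, n = 3 each), and Eng, a co-receptor for BMP and TGF-beta ligands, 31.9 ± 4.12 and 36.4 ± 0.986. Their differences of 0.48 and 0.19 had limma adjusted p of 0.254 and 0.445. The semaphorin and VEGF co-receptors Nrp1 and Nrp2 and the semaphorin receptor Plxnd1 overlapped between groups at both stages, with Nrp2 at log2 -0.33 and -0.58, Nrp1 at 0.01 and -0.21 and Plxnd1 at -0.20 and -0.11. Without null replicate 3 their differences at E10.5 were -0.21 for Nrp2, -0.11 for Nrp1 and 0.02 for Plxnd1.

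Junction and surface genes gave no call either, 0 of 12 at each stage, against 17.2% of all genes tested at E9.5 and 2.07% at E10.5. Pecam1, the adhesion molecule CD31, was 34.1, 36.0, 28.2, 43.5 and 35.5 RPKM in flox and 36.3, 46.3, 42.7, 54.0 and 41.7 RPKM in null at E9.5. The null libraries were mostly the higher ones, but the groups overlapped (log2 0.32, SE 0.121, limma adjusted p = 0.0961). Its E10.5 values were 45.0, 42.1 and 45.0 RPKM in flox and 57.7, 40.8 and 35.4 RPKM in null, a log2 difference of -0.01. The authors' deposited table of E9.5 lists Pecam1 at 0.33, Cd34 at 0.22 and Ecscr at 0.24 (log2, null over control), with adjusted p of 0.0461, 0.0295 and 0.0356.

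Cdh5, the cadherin that joins endothelial cells, was the defining gene with the smallest error at E9.5. It was 66.8, 57.8, 55.5, 69.1 and 64.8 RPKM in flox and 61.7, 61.0, 59.9, 61.9 and 58.9 RPKM in null, and the 95% interval of the log2 difference ran from -0.18 to 0.10. At E10.5 it was 57.8, 49.0 and 54.9 RPKM in flox and 48.2, 47.8 and 32.7 RPKM in null, where all null libraries were the lower ones (log2 -0.34, SE 0.183, limma adjusted p = 0.294).

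Lyve1, a hyaluronan receptor of lymphatic and some endocardial cells, was 2.256, 3.797, 2.2502, 5.927 and 3.92 RPKM in flox and 2.15, 3.00, 2.40, 4.24 and 2.96 RPKM in null at E9.5. By E10.5 it was 4.00, 3.48 and 2.66 RPKM in flox and 4.91, 6.41 and 4.29 RPKM in null. The groups overlapped at the first stage and stood apart at the second, where the difference was 0.55 (SE 0.210, limma adjusted p = 0.175).

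The remaining 9 genes of this group overlapped between groups at both stages. Emcn, a sialomucin of veins and endocardium, averaged 27.0 ± 4.81 RPKM in flox and 31.6 ± 5.33 in null at E9.5 (SD, n = 5 each) and 47.3 ± 6.41 and 52.4 ± 8.76 at E10.5 (SD, n = 3 each). Cd34, a sialomucin of blood-forming and endothelial cells, and Ecscr, a regulator of endothelial movement, had log2 differences of 0.20 and 0.22 at E9.5 and of -0.13 and 0.34 at E10.5. Plvap stood at -0.25 and 0.03, and Cldn5, a tight junction protein, at -0.39 and 0.03. The adhesion genes Esam and Icam2, the lectin Clec14a and the matrix protein Mmrn2 lay between -0.08 and 0.08 at E9.5 and between -0.10 and 0.25 at E10.5.

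Transcription factors held the only calls of E9.5, 2 of 9, where 17.2% of all genes tested were called. Sox18, a SOX factor of early vessel and lymphatic identity, was 20.8, 11.6, 20.9, 18.5 and 14.7 RPKM in flox and 15.6, 11.5, 9.62, 9.86 and 10.0 RPKM in null. It fell by 0.58 on the log2 scale (SE 0.176, limma adjusted p = 0.0448). Flox replicate 2 lay among the null libraries and null replicate 1 among the flox ones, so the groups overlapped. By E10.5 Sox18 was 6.70, 6.91 and 8.31 RPKM in flox and 5.94, 8.48 and 5.91 RPKM in null, with a difference of -0.11 (limma adjusted p = 0.740).

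Klf2, the factor by which endothelium responds to blood flow, was 17.6, 12.0, 16.1, 13.0 and 13.7 RPKM in flox and 12.5, 11.1, 9.98, 5.93 and 9.56 RPKM in null at E9.5. It fell by 0.56 on the log2 scale (SE 0.174, limma adjusted p = 0.0471), and of the null libraries only replicate 1 reached into the flox range. At the later stage it was 9.93, 7.94 and 10.2 RPKM in flox and 1.87, 5.40 and 8.51 RPKM in null. That difference was larger but uneven between libraries, -0.97 with an SE of 0.425 (limma adjusted p = 0.219). The related factor Klf4 averaged 3.11 ± 0.329 RPKM in flox and 2.51 ± 0.437 in null at E9.5 (SD, n = 5 each), a difference of -0.27 that did not pass (limma adjusted p = 0.124).

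Both calls of E9.5 were close to the threshold. The Sox18 call held without flox replicate 2 or null replicate 1 and was lost without any of the other 8 libraries (limma adjusted p 0.0582 to 0.105). The Klf2 call held without null replicate 1 or 4 and was lost without any of the other 8 (limma adjusted p 0.0527 to 0.110). Neither gene was called when libraries were scaled to a common median, under which Cd34 and Ecscr were called instead. The authors' deposited table of E9.5 lists Sox18 with a log2 of -0.50 and Klf2 with -0.47, null over control, at adjusted p of 0.0133 and 0.0150. That table lists 5 of the 40 genes, where it lists 20.5% of all genes tested. The list of E10.5, with Flt4, Egfl7, Sox17 and Aplnr, holds 4 of the 40 against 9.09%.

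**Figure D2:**
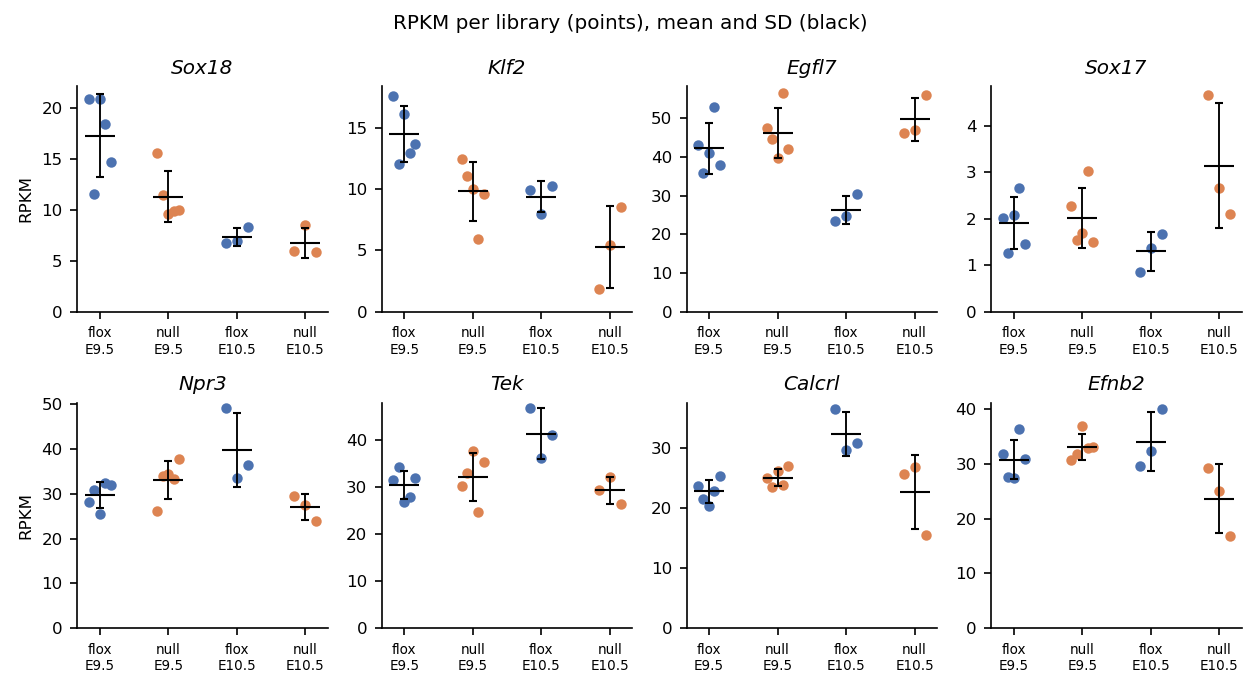
RPKM of 8 genes in each library (points; blue flox, orange null), with the group mean and SD in black, for 5 and 5 libraries at E9.5 and 3 and 3 at E10.5. Sox18 and Klf2 are lower in null at E9.5 with overlap, and Egfl7 at E10.5 lies between 23.5 and 30.3 RPKM in flox and between 46.1 and 55.9 RPKM in null.

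Sox17, a SOX factor of arterial and endocardial cells, was 2.03, 1.27, 2.09, 2.67 and 1.46 RPKM in flox and 2.28, 1.55, 1.69, 3.02 and 1.499 RPKM in null at E9.5, with overlapping groups. Its E10.5 values were 0.856, 1.37 and 1.66 RPKM in flox and 4.67, 2.67 and 2.09 RPKM in null. All 3 null libraries were above all flox libraries, by 0.98 on the log2 scale (SE 0.2999), without passing the test (limma adjusted p = 0.123). The authors' deposited table of E10.5 lists Sox17 with a log2 of 1.03, null over control, at an adjusted p of 0.00870. Sox7, the other member of that family here, was at 26.0 RPKM in null replicate 1 and between 7.67 and 11.4 RPKM in the other E10.5 libraries.

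Nfatc1, the factor that marks endocardium and the cells of the forming valves, did not separate the groups. It was 15.9, 11.9, 11.8, 12.9 and 14.8 RPKM in flox and 15.0, 12.6, 13.2, 11.8 and 12.6 RPKM in null at E9.5, and 9.47, 6.78 and 8.66 RPKM in flox against 10.4, 7.50 and 6.72 RPKM in null at E10.5. The 95% intervals of its log2 difference were -0.25 to 0.16 and -0.50 to 0.45. Among the ETS factors, Erg and Fli1 had differences of 0.21 and 0.11 at E9.5 and of -0.11 and -0.23 at E10.5. Ets1 averaged 34.7 ± 0.286 RPKM in flox and 28.9 ± 6.72 in null at E10.5 (SD, n = 3 each), where null replicate 3 was the low one at 21.2 RPKM.

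The arterial ligand Efnb2 and its venous receptor Ephb4 were not called at either stage. Ephb4 was 28.8, 31.0, 28.7, 31.2 and 29.7 RPKM in flox and 28.3, 27.0, 27.7, 23.8 and 25.8 RPKM in null at E9.5. It was the 1 member of 40 (2.5%) without overlap at that stage, where 14.1% of all genes tested had none (8.57% lower in null), and its difference of -0.17 (SE 0.0562) just missed the threshold (limma adjusted p = 0.0595). At E10.5 Ephb4 overlapped, with 25.8 ± 4.00 RPKM in flox and 23.7 ± 4.44 in null (SD, n = 3 each).

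Efnb2 was 31.8, 27.6, 27.5, 36.3 and 30.8 RPKM in flox and 30.8, 31.8, 36.9, 32.8 and 33.1 RPKM in null at E9.5. At E10.5 it was 29.7, 32.3 and 40.02 RPKM in flox and 29.2, 24.98 and 16.8 RPKM in null, so its null libraries were now the lower ones (log2 -0.54, SE 0.220, limma adjusted p = 0.197). Within each library the log2 ratio of Efnb2 to Ephb4 was higher in null by 0.28 at E9.5 (exact permutation test, two-sided, p = 0.0317, adjusted over 6 ratios 0.190) and differed by -0.41 at E10.5 (exact p = 0.200, adjusted 0.360).

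Of the other ratios compared, Flt1 over Kdr and Tek over Tie1 did not overlap at E10.5, where 3 against 3 libraries cannot give an exact p below 0.1. Flt1 over Kdr differed by 0.35 and Tek over Tie1 by -0.42, each at that smallest exact p (adjusted 0.3). At E9.5 the ratio of Nfatc1 to Cdh5 differed by 0.00 and that of Npr3 to Cdh5 by 0.19 (exact p = 0.984 and 0.119). At E10.5 the same ratios of endocardial to general endothelial genes differed by 0.32 and -0.19, with exact p of 0.3 for both.

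Npr3, the natriuretic peptide clearance receptor that marks endocardium, was 28.2, 30.9, 25.5, 32.5 and 31.9 RPKM in flox and 26.1, 33.9, 34.4, 33.3 and 37.8 RPKM in null at E9.5. By E10.5 it was 49.1, 33.6 and 36.4 RPKM in flox and 29.6, 27.5 and 23.9 RPKM in null, without overlap. The log2 difference was 0.14 at the first stage and -0.53 (SE 0.178, limma adjusted p = 0.144) at the second. The change between stages was -0.68 and just missed the threshold (limma adjusted p = 0.0528).

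Calcrl, the receptor that pairs with Ramp2 to bind adrenomedullin, followed a like course. It was 23.7, 21.6, 20.4, 22.9 and 25.4 RPKM in flox and 25.0, 23.6, 26.1, 23.9 and 26.9 RPKM in null at E9.5, and 36.5, 29.7 and 30.8 RPKM in flox against 25.8, 26.8 and 15.5 RPKM in null at E10.5. The null libraries of E10.5 all lay below flox, by -0.54 (SE 0.220, limma adjusted p = 0.198). Ramp2 itself averaged 76.0 ± 7.02 RPKM in flox and 73.1 ± 8.50 in null at E10.5 (SD, n = 3 each). Nos3, the endothelial nitric oxide synthase, was 18.1 ± 1.94 RPKM in flox and 14.5 ± 2.44 in null at E9.5 (SD, n = 5 each), a difference of -0.32 (limma adjusted p = 0.0783).

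Egfl7, a secreted matrix protein of endothelium that guides the forming tubes, gave the smallest p of the set at E10.5. It was 43.0, 35.9, 41.0, 52.9 and 37.9 RPKM in flox and 47.5, 44.7, 39.7, 56.6 and 42.1 RPKM in null at E9.5, with overlapping groups. At the later stage it was 23.5, 24.8 and 30.3 RPKM in flox and 46.1, 46.9 and 55.9 RPKM in null. The null mean was 1.90 times the flox mean, and Egfl7 rose by 0.91 on the log2 scale (SE 0.156, limma adjusted p = 0.0284). The difference at E10.5 exceeded that at E9.5 by 0.78 (SE 0.190, limma adjusted p = 0.0366).

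In flox hearts Egfl7 was 1.61 times higher at E9.5 than at E10.5, whereas null hearts averaged 46.1 ± 6.53 RPKM at E9.5 and 49.6 ± 5.47 RPKM at E10.5 (SD, n = 5 and 3). The call at E10.5 held without null replicate 1 and was lost without any of the other 5 libraries (limma adjusted p 0.0539 to 0.149), while the difference stayed between 0.83 and 1.02. The authors' deposited table of E10.5 lists Egfl7 with a log2 of 0.89, null over control, at an adjusted p of 1.74e-05. Mir126a and Mir126b lie inside Egfl7 on chromosome 2 and held at most 5 reads per library, so their level could not be read at this depth. The mature RNA itself is not captured by libraries of polyadenylated RNA. Rasip1, a regulator of the vessel lumen, averaged 25.7 ± 3.65 RPKM in flox and 20.9 ± 3.16 in null at E9.5 (SD, n = 5 each) and 11.8 ± 1.72 and 13.8 ± 1.69 at E10.5 (SD, n = 3 each). Of the 40 genes, 9 overlap another listed gene, among them Eng with Fpgs, Plvap with Gtpbp3 and Nos3 with Atg9b, and their reads may not be fully separable because no source used here says how reads were assigned by strand.

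Genes without overlap were 13 of 40 at E10.5 (32.5%), where 31.3% of all genes tested had none, so the count was near the background. The 6 genes higher in null were Flt4, Robo4, Eng, Lyve1, Sox17 and Egfl7 (15.0% against 13.9%). The 7 lower ones were Tek, Aplnr, Cdh5, Ets1, Efnb2, Calcrl and Npr3 (17.5% against 17.4%). At an unadjusted limma p under 0.05 there were 13 genes at E9.5 (32.5% against 32.4% of all) and 9 at E10.5 (22.5% against 22.9%). For the difference between stages there were 12 (30% against 26.4%).

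**Figure D3:**
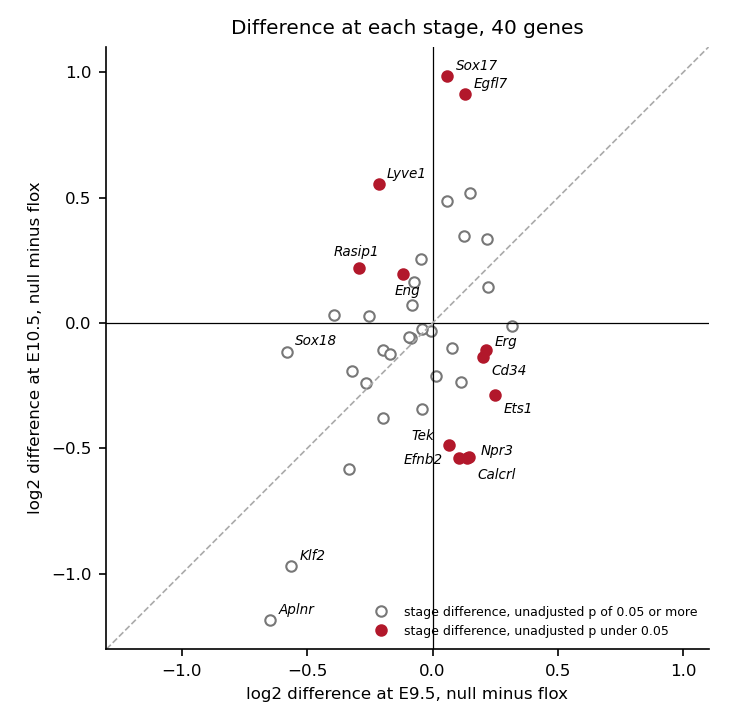
Log2 difference (null minus flox) of the 40 genes at E9.5 on the horizontal and at E10.5 on the vertical axis, with the dashed line where both are equal. Red points are the 12 genes whose stage difference had an unadjusted limma p under 0.05, of which Egfl7 alone passed after adjustment, at 0.13 and 0.91.

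Those 12 genes lie on both sides of the dashed line in the plot of both stages. Egfl7 and Sox17 were near 0 at E9.5 and higher in null at E10.5, while Tek, Efnb2, Calcrl and Npr3 were near or above 0 at E9.5 and lower in null at E10.5. After adjustment Efnb2 had a limma p of 0.0779, Calcrl 0.0607, Tek 0.0807 and Sox17 0.121. Cd34, Erg and Ets1 differed by -0.33, -0.32 and -0.54 between stages, and Eng, Lyve1 and Rasip1 by 0.31, 0.77 and 0.51, with limma adjusted p of 0.113 to 0.189 over these 6 genes.

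Between the stages, flox hearts held 13 of the 40 genes lower at E10.5 without overlap, where 20.9% of all genes were, and 8 higher, where 27.4% were. RNA input and stage changed together, so these levels are given without a test. Sox18 was 2.37 times, Rasip1 2.17 times, Nos3 1.92 times and Eng 1.82 times higher at E9.5. Emcn, Ets1 and Fli1 were higher at E10.5, by 1.75, 1.64 and 1.58 times. In null hearts 9 of the 40 were lower at E10.5 (7.16% of all genes) and 3 were higher (13.0%), which were Emcn, Lyve1 and Robo4. Nos3, Sox18, Nfatc1, Rasip1, Eng, Plxnd1 and Tie1 were among the lower genes in both genotypes. Npr3, Tek, Calcrl, Cd34, Clec14a, Fli1 and Ets1 were higher at E10.5 without overlap in flox and overlapped in null. The stage difference passed the test for none of these 7 genes (limma adjusted p 0.0528 to 0.721). For Clec14a the E10.5 mean was 1.48 times the E9.5 mean in flox and 1.69 times in null.

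Other genes of the pathway were taken from lists outside the 40. Of 21 vascular ligands tested at E9.5, 1 rose and 2 fell, and of 22 at E10.5, 1 fell. Over all genes tested 6.87% rose and 10.3% fell at E9.5, and 1.77% and 0.305% at E10.5. The median log2 difference of the ligands was 0.10 at E9.5 and 0.31 at E10.5, against -0.04 and -0.03 over all genes. Edn1, the endothelin made by endothelium, was 5.70, 6.30, 6.46, 13.3 and 11.01 RPKM in flox and 11.6, 17.1, 17.3, 22.4 and 14.8 RPKM in null at E9.5 (log2 0.97, SE 0.238, limma adjusted p = 0.0189). The semaphorin Sema3c lay between 11.1 and 13.5 RPKM in flox and between 6.44 and 9.51 RPKM in null, without overlap, and fell by 0.65 (SE 0.104, limma adjusted p = 0.00257). Angpt2, an antagonist of Tek, was low in all libraries, at most 1.78 RPKM, and fell by 0.52 (limma adjusted p = 0.0316). The calls of Edn1 and Sema3c held without each library in turn, and that of Angpt2 was lost without 7 of 10, all but flox replicate 5 and null replicates 1 and 4 (limma adjusted p 0.0566 to 0.0791).

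At E10.5 the ligand that fell was Angpt1, the main activator of Tek. It was 45.7, 35.1 and 32.1 RPKM in flox and 12.9, 21.2 and 15.3 RPKM in null, a fall of 1.18 on the log2 scale (SE 0.214, limma adjusted p = 0.0338). All null libraries were below all flox libraries, as for Tek, and the call held only without null replicate 2 (limma adjusted p 0.0526 to 0.148 without each of the others). Vegfa, the main ligand of Kdr, was 15.3, 21.9 and 18.2 RPKM in flox and 144, 54.3 and 31.6 RPKM in null, without overlap and without passing (log2 1.75, SE 0.467, limma adjusted p = 0.0976). Adm, the ligand of the Calcrl receptor, was 5.13, 5.81 and 5.70 RPKM in flox and 22.2, 14.7 and 8.86 RPKM in null (limma adjusted p = 0.0684).

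Of 29 other endothelial receptors and regulators tested at E9.5, 4 rose and 3 fell, where 6.87% of all genes rose and 10.3% fell. The list median was -0.04, the same as over all genes. Tal1 and Lmo2, partners in early blood and endothelial specification, rose by 0.97 (SE 0.176, limma adjusted p = 0.00459) and 0.48 (SE 0.124, limma adjusted p = 0.0232). Tal1 was 12.0 to 17.3 RPKM in flox and 20.8 to 40.9 RPKM in null, without overlap. Erythroid genes moved with this pair. Of 11, 9 rose, where 6.87% of all genes did. Among them were the globins Hbb-bh1, Hbb-y and Hba-x and Gata1, Klf1, Alas2, Slc4a1 and Epor. The list's summed level was 11056 to 28104 RPKM in flox and 27878 to 75210 RPKM in null. Both genes are also expressed in erythroid cells.

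The other rises were Hhex, a homeobox factor of blood vessels and liver bud, by 0.32 (SE 0.0909, limma adjusted p = 0.0345) and Ptprb, a phosphatase that acts on Tek, by 0.42 (SE 0.109, limma adjusted p = 0.0231). The falls were the guidance receptor Robo1 by 0.58 (SE 0.112, limma adjusted p = 0.00627), the Notch target Hey2 by 0.41 (SE 0.109, limma adjusted p = 0.0260) and the endothelin receptor Ednra by 0.38 (SE 0.119, limma adjusted p = 0.0483). Whole-heart RNA does not show in which cells these genes fell. Robo1 was 7.21 to 10.7 RPKM in flox and 4.802 to 6.54 RPKM in null, without overlap. Its call and that of Tal1 held without each library in turn. The others were lost without 1 of 10 libraries for Lmo2 (flox replicate 5), 4 for Ptprb, 6 for Hhex, 5 for Hey2 and 8 for Ednra, with limma adjusted p of at most 0.103. With the erythroid level in the fit none of these 7 genes was called (limma adjusted p 0.350 to 0.969), and 92 of all genes were, against 2342 without it. That level nearly separated the genotypes at E9.5 (11056 to 28104 RPKM in flox, 27878 to 75210 RPKM in null). The fit therefore cannot tell erythroid level from genotype. The SE grew for all of these genes but Tal1, for Robo1 from 0.112 to 0.193. The log2 differences in that fit were 0.25 for Tal1, 0.19 for Lmo2, 0.10 for Hhex, 0.51 for Ptprb, -0.47 for Robo1, -0.32 for Hey2 and -0.03 for Ednra.

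At E10.5 only Hhex rose among 30, where 1.77% of all genes tested rose. It was 5.28, 6.22 and 6.76 RPKM in flox and 12.6, 16.6 and 10.8 RPKM in null, a rise of 1.05 (SE 0.192, limma adjusted p = 0.0350) with no overlap. Hhex is also a liver gene, and foregut and liver genes summed to 3.11, 178 and 7.45 RPKM in flox and 22.5, 1364 and 931 RPKM in null. The part of liver tissue in the Hhex value was not tested. The call was lost without any flox library or null replicate 2 (limma adjusted p 0.0653 to 0.163).

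Markers of other cell types were summed in the same libraries. Cardiomyocyte genes were lower in null at E9.5 for 9 of 10, where 57.9% of all genes were. Their median log2 difference was -0.28, and 3 of 10 fell, where 10.3% of all genes did. The cardiac myosin heavy chain Myh6 fell by 0.76 (limma adjusted p = 0.00399), the cardiac actin Actc1 by 0.35 (limma adjusted p = 0.0349) and the thick filament protein Mybpc3 by 0.48 (limma adjusted p = 0.00230), each without overlap. The list summed to 13491 to 15965 RPKM in flox and 10844 to 13563 RPKM in null at E9.5. At E10.5 it was higher in null for 9 of 10, where 53.7% of all genes were lower. Of these, 0 were called by limma and 0 had an unadjusted p under 0.05. Over all genes tested at E10.5, 2.07% were called and 22.9% had such a p. The cardiomyocyte sums there were 6044 to 11680 RPKM in flox and 9507 to 12924 RPKM in null. Erythroid genes at E10.5 held 24301 to 68173 RPKM in flox and 46587 to 142024 RPKM in null, and 0 of 11 were called by limma, with 1 at an unadjusted p under 0.05. Macrophage and white blood cell genes held 5.99 to 11.6 RPKM in flox and 5.08 to 15.5 RPKM in null at E9.5, and 12.6 to 25.4 and 22.2 to 39.2 at E10.5. Of 5 tested at E9.5, Lyz2, the lysozyme of myeloid cells, fell by 0.64 (limma adjusted p = 0.0410), and of 7 at E10.5 none was called, with 3 at an unadjusted p under 0.05. Platelet genes held 7.89 to 45.3 and 11.02 to 67.2 RPKM at E9.5 with 0 of 6 called and 0 at an unadjusted p under 0.05. Over all genes tested at E9.5, 17.2% were called and 32.4% had such a p. No marker of these lists was at 0 in all libraries of a stage, but Ptprc and Adgre1 stayed under 1 RPKM in every library of both stages. With the erythroid level in the fit Sox18 had a log2 difference of -0.68 (SE 0.309, limma adjusted p = 0.460) and Klf2 one of -0.35 (SE 0.295, limma adjusted p = 0.776) at E9.5. Their SE without it were 0.176 and 0.174, and that level nearly separated the genotypes at E9.5. Egfl7 at E10.5 had 0.88 (SE 0.202, limma adjusted p = 0.125) in that fit, against 0.91 without it. That fit called 81 of all genes at E10.5, against 292. The part of the other cell types in the differences was not tested.

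By erythroid level, 1 RNA library in each group of E10.5 stood apart. The libraries differed in other ways too. Foregut and liver genes held 3.11, 178 and 7.45 RPKM in flox replicates 1 to 3 and 22.5, 1364 and 931 RPKM in null replicates 1 to 3. Null replicate 1 was the highest null library for 21 of the 40 genes. Flox replicate 2 held 68173 RPKM of erythroid genes against 24301 and 24888 RPKM in the other flox libraries, and 6044 RPKM of cardiomyocyte genes against 10555 and 11680 RPKM. It was the lowest flox library for 22 of the 40 genes. Without it Egfl7 differed by 0.88 and was not called (limma adjusted p = 0.111), and Eng moved from 0.19 to 0.08. The other 11 genes without overlap at E10.5 stayed within 1.5 times of their difference. Null replicate 3 had the highest erythroid level (142024 RPKM) and was the lowest null library for 26 of the 40 genes. Without it the differences were -0.41 for Tek, -0.45 for Npr3, -0.32 for Efnb2, -0.29 for Calcrl, -0.16 for Cdh5 and -0.08 for Ets1, so the last 4 moved toward 0 by over 1.5 times. Flt1 moved from -0.03 to 0.29 and Klf4 from -0.24 to -0.07. At E9.5 flox replicate 4 was the highest flox library for 20 genes and null replicate 4 the highest null library for 19. These 2 libraries also held the most Vegfa, 74.2 RPKM against 24.8 to 30.3 RPKM in the other flox libraries and 106 RPKM against 31.0 to 35.3 RPKM in the other null libraries.

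CHD4 binding near these genes was read from the authors' peak lists of wild-type E10.0 hearts. The lists held 84271, 60749 and 50232 peaks, and 22824 peaks of the first overlapped peaks of both others by at least 1 bp. A shared peak lay within 5 kb of the annotated start for 20 of 40 genes, or 50% (exact 95% binomial interval 33.8 to 66.2, counting error only), against 64.1% of all genes tested at E9.5. Within 1 kb it was 10 genes or 25.0% (interval 12.7 to 41.2) against 57.1%, and within 50 kb 31 genes or 77.5% (61.5 to 89.2) against 84.7%. The strand, and so the start, was known for 23 of the 40 genes and for 74.4% of all genes tested, and either gene end was used for the rest. With either gene end used for all genes, the share within 5 kb was 57.5% (interval 40.9 to 73.0) against 67.2%. Either gene end for all genes was not run within 1 kb.

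**Figure D4:**
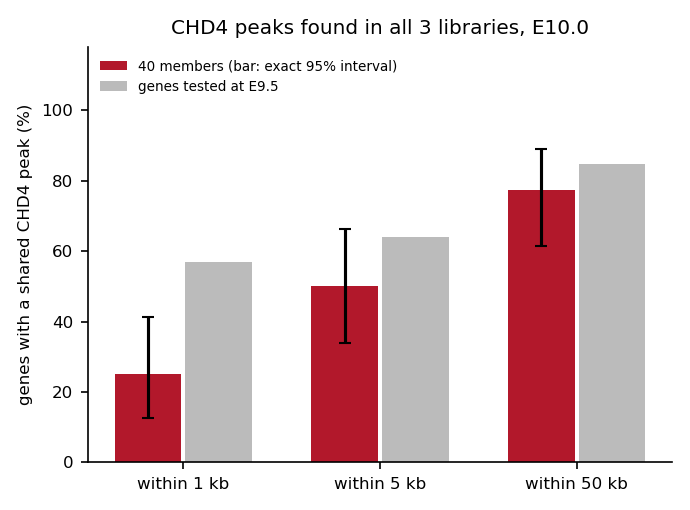
Share of genes, in percent, with a CHD4 peak of all 3 libraries within 1, 5 and 50 kb of the annotated start, for the 40 genes (red, with exact 95% binomial intervals) and for all genes tested at E9.5 (grey). The members lie below all genes at each distance, at 25.0, 50 and 77.5% against 57.1, 64.1 and 84.7%. Their interval holds the share of all genes at 5 and 50 kb but not at 1 kb.

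Peaks over or beside a start were found by role. Among the transcription factors the peak over the Klf2 start was the strongest (score 252 in the first library), and Klf4 had peaks of score 146 and 48 within 5 kb, while Sox7, Sox17, Sox18, Erg and Fli1 had no shared peak there. The guidance pair both had one over the start, with scores of 252 for Efnb2 and 180 for Ephb4. Npr3 had a peak of score 114 over its start and another of score 93 at 426 bp from it. Egfl7 had 3 shared peaks within 5 kb of an annotated start, of which the strongest, with a score of 168, ended 47 bp before the downstream start, and another began 83 bp after it.

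Of the VEGF and angiopoietin receptors, Kdr, Flt1, Flt4, Tek and Tie1 had no shared peak within 5 kb, whereas Nrp1 had 3 and Nrp2 1. Kdr and Tie1 had a peak within 5 kb in 2 of the 3 lists, Flt4 in 1 and Tek in none. Elsewhere in the gene, Flt1 held 5 shared peaks and Kdr 1, while Flt4, Tek and Tie1 held none. In the junction group, Cdh5, Cldn5, Emcn, Cd34, Clec14a and Lyve1 had none. Klf2 and Egfl7 had a shared peak and passed the expression test at a stage, and Sox18 passed it without one. For comparison, 50% of the 40 genes and 64.1% of all genes tested at E9.5 had a shared peak within 5 kb. Sox18 and Fli1 had a peak within 5 kb of a gene end in each of the 3 lists, but these did not meet the overlap rule. The same held for Flt1 within 5 kb of an annotated start. Whether peaks and expression differences go together was not tested.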

How the data were processed

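RNA values were taken from the authors' deposited RPKM tables, which are scaled per 1000 bases of the gene and per 1000000 reads of the library. Per the submitters' processing notes reads were processed on mm10 with HTSeq 0.6.2, Bowtie 1.2.0 and SAMtools 1.6, and MACS2, DESeq2 1.6.3 and bedtools 2.25.0 were used as well. How strand was handled when reads were counted is not stated in those notes. The log2 fold changes and p-values quoted from the authors' deposited tables are of control over null and were turned to null over control, and those tables list only genes at an adjusted p of at most 0.05. Those deposited tables also hold the authors' mean signal of each gene and a test score, neither of which was used. The peak score is a whole number deposited by the authors per peak and library, whose scale is not stated, and it was used only to describe peaks. Gene lengths and peak positions were used as deposited by the authors.

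Multiplied by gene length and library size, 100% of the RPKM values were whole reads to within 0.01. Replicates differed from each other by more than sampling noise. Differences were fitted in R 4.3.3 with limma 3.58.1 (lmFit, then eBayes with a trend) on log2(RPKM + 0.5), a scale that understates the change of low genes. Genes entered where their mean over a stage's libraries reached 0.5 RPKM. Tests were two-sided, each stage alone without covariates, and p-values were Benjamini-Hochberg adjusted over all genes tested. For the stage difference, the 16 libraries were fitted jointly and the interaction of stage and genotype was tested. The log2 ratios of 6 gene pairs within each library were compared by exact permutation tests, two-sided, adjusted over the 6. Adjusted p-values of genes are from limma unless named as the authors'. In simulated data with known changes the fit recovered 95% of genes changed by 1 and 31% of those changed by 0.5 (log2) at E9.5. At E10.5 it recovered 64.9% and 2%, and of stage differences of 1 it recovered 52.8%. It also called 8 unchanged genes at E9.5, 9 at E10.5 and 6 for the stage difference. The simulation gave every gene the same dispersion, changed few genes and held no library that stood apart. Its shares therefore need not hold for the real libraries.

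Peak overlaps were made with bedtools 2.31.1, and tables and plots with pandas 2.3.3, scipy 1.17.1, numpy 2.4.6 and matplotlib 3.10.9 under Python 3.11.15. The strand of a gene came from RefSeq promoters where given, and the start was otherwise taken as either gene end. The 2 input libraries of the ChIP were not analysed here.

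The 40 genes, the other lists, the pairs and the tests were chosen with earlier results of these data known. All 40 genes were accounted for. Values in every library were given for genes called in a comparison, for genes without overlap at an unadjusted p under 0.05 and for Pecam1, Cdh5, Kdr, Tek, Nfatc1 and Npr3. Of the other lists genes called at a stage were named, apart from 1 that is not reported here, and Vegfa, Adm, Ptprc and Adgre1 were named after their values were seen. Alternatives were other pseudocounts (0.1 and 1), dropping the filter or raising it to 1 RPKM, arrayWeights, robust eBayes, voom on the recovered reads, a common median, quantile normalization, totals that leave out erythroid genes and the top 10, the erythroid or epicardial level as covariate, a block by replicate number, and each library left out. Peak alternatives were other windows, overlaps, scores and single lists, and, chosen after seeing the data, either gene end for all genes.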

Additional observations from a re-analysis of the deposited data

Results flagged for a closer look

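The values of the 40 genes were checked for libraries far from the rest of their group in the 80 groups of 5 libraries at E9.5. Chance alone gives about 1 in 20, and 7 were found. Emcn was 35.2 RPKM in flox replicate 4, where the other flox libraries lay between 23.3 and 26.7 RPKM. Ramp2 was 93.6 RPKM in flox replicate 1, where the others lay between 74.0 and 78.1 RPKM. In null replicate 1, Emcn was low at 22.2 RPKM against 32.8 to 35.0 RPKM in the others. Null replicate 4 was high for 4 genes. Flt1 was 12.8 RPKM there against 7.12 to 8.65 RPKM in the others, and Flt4 was 7.87 RPKM against 5.92 to 6.42 RPKM. Icam2 was 42.3 RPKM against 28.4 to 31.97 RPKM, and Sox7 was 23.4 RPKM against 11.3 to 12.8 RPKM. None of these 6 genes was called at either stage.

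The difference of Egfl7 between null and flox hearts was larger at E10.5 than at E9.5 by 0.78 on the log2 scale (limma adjusted p = 0.0366). All 3 null libraries of E10.5 lay above all flox libraries, while the groups overlapped at E9.5. The call was lost without 8 of the 16 libraries taken in turn (limma adjusted p 0.0602 to 0.107). Those were flox replicates 1, 3 and 4 and null replicates 3 and 5 of E9.5, and flox replicates 1 and 2 and null replicate 3 of E10.5. The difference stayed between 0.70 and 0.89 in all 16.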

How the results depend on the processing

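Counts of called members depended on the settings, and the cause was not tested. At E9.5 the count was 2 as reported, 0 with no filter or with the erythroid level in the fit, 1 with totals without erythroid and the 10 most abundant genes or with the epicardial level in the fit (Ecscr in both), 7 with arrayWeights, and 0 to 8 with 1 library left out. At E10.5 it was 1 as reported, 0 with no filter or with the erythroid or epicardial level, 4 with arrayWeights and 0 to 1 with 1 library left out. For the stage difference it was 1 as reported, 0 with no filter, 2 with a mean of at least 1 RPKM or quantile normalization, 3 with a common median or the smaller totals, and 0 to 4 with 1 library left out. Over all genes arrayWeights gave 3549 calls at E9.5 and 1426 at E10.5, against 2342 and 292, and the erythroid level gave 92 and 81. Of the 23 other settings at E9.5, 9 called Sox18 and 9 called Klf2. Egfl7 was called in 11 of 19 at E10.5 and in 18 of 27 for the stage difference, and it was positive in all of them.

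Replicate numbers were not treated as pairs, since the labels give no shared origin and not every same-numbered pair deviated together. Correlations of same-numbered libraries were 0.45, 0.04, -0.14, 0.52 and 0.26 at E9.5 and 0.05, 0.11 and -0.03 at E10.5, and flox replicates 1, 4 and 5 of E9.5 and 1 and 2 of E10.5 correlated best with their own number. With the replicate block 9 members were called at E9.5 (3698 genes in all), 1 at E10.5 and 4 for the stage difference. Those of E9.5 were Cldn5, Ecscr, Erg, Klf2, Nos3, Pecam1, Plvap, Rasip1 and Sox18. In the reported fit Ecscr, Erg and Pecam1 had positive differences (0.22, 0.21 and 0.32) and the others negative ones. No ratio passed with the block, whose smallest p was 0.0625 at E9.5 and 0.250 at E10.5.

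The log2 ratio of Efnb2 to Ephb4 at E9.5 differed by 0.23 to 0.33 with 1 library left out, that of Npr3 to Cdh5 by 0.13 to 0.28, and that of Nfatc1 to Cdh5 by -0.0469 to 0.0418, or by -0.000307 with a pseudocount of 0.1. Without null replicate 1, Efnb2 over Ephb4 and Npr3 over Cdh5 passed (exact permutation test, adjusted p = 0.0476 for both). They passed with no other library left out. The other ratios kept their direction under the settings run. The share of members with a CHD4 peak was 25.0% within 1 kb, 77.5% within 50 kb, 32.5% for peaks at or above each list's median score and 87.5% for a peak of any library, against 57.1%, 84.7%, 55.0% and 91.6% of all genes tested. A stricter overlap between peaks gave 45.0% against 61.8%, and either gene end for all genes gave 57.5% against 67.2%. Depth limits the lowest genes most, Cldn5 and Robo4 at E9.5 (at least 38 and 54 reads a library) and Robo4, Klf2, Klf4, Cldn5 and Sox17 at E10.5 (56 to 63), and 3 libraries a group limit E10.5.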

Other observations

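Markers outside the lining moved in the same libraries. Myh11, the smooth muscle myosin, rose at both stages, by 2.45 at E9.5 (SE 0.153) and by 2.74 at E10.5 (SE 0.260) on the log2 scale (limma adjusted p = 5.47e-06 and 0.00306). It was 1.02 to 2.11 RPKM in flox and 7.72 to 10.9 RPKM in null at E9.5, and 0.413 to 1.28 and 8.53 to 8.80 RPKM at E10.5. It was 1 of 7 smooth muscle and pericyte genes called at either stage. Over all genes tested 17.2% were called at E9.5 and 2.07% at E10.5. At E10.5 Krt19, an epithelial keratin of the epicardium list, rose by 2.29 (SE 0.291, limma adjusted p = 0.01002) as 1 of 9 in that list, of which 5 were lower in null. Col1a1, a fibrillar collagen of the cushion mesenchyme and fibroblast list, rose by 1.09 (SE 0.166, limma adjusted p = 0.0192) as 1 of 10, while the other 9 were lower in null and none of them was called (list median -0.26). None of 10 cushion and 8 epicardium genes tested at E9.5 was called by limma, with 3 and 0 at an unadjusted p under 0.05. All 8 epicardium genes were higher in null there (list median 0.61), with sums of 83.6 to 336 RPKM in flox and 152 to 454 RPKM in null. At E10.5 the epicardium sums were 239 to 286 RPKM in flox and 327 to 363 RPKM in null, with a list median of -0.01.

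Among genes of the pathway lists, 3 had a difference that changed between stages, where 4.04% of all genes tested did. Tgfb1, the TGF-beta ligand, was 17.9 ± 1.54 RPKM in flox and 17.4 ± 2.84 in null at E9.5 (SD, n = 5 each) and 11.2 ± 1.15 and 18.0 ± 0.978 at E10.5 (SD, n = 3 each), a stage difference of 0.71 (limma adjusted p = 0.0349). For Stab1, a scavenger receptor of endothelium, the stage difference was 0.70 (limma adjusted p = 0.0406), and for Hhex it was 0.73 (limma adjusted p = 0.0423). Each was lost without 9, 11 and 11 of the 16 libraries in turn (limma adjusted p up to 0.121).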
